A study of Homo sapiens with 16 samples.

Results

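The genes described here encode the proteasome and the proteins that assemble, open or inhibit it. They are the rows of the count table whose symbol is PSM, a letter from A to G and a number, with the 32 PSM pseudogene rows left out, which gives 48 of 35106 rows. By role they are 7 alpha and 7 beta subunits of the core, 2 tissue-restricted core subunits (PSMA8, PSMB11), 3 immunoproteasome subunits (PSMB8, PSMB9, PSMB10), 6 ATPases and 11 other subunits of the cap, 3 cap and 4 core assembly chaperones, 4 activators and 1 inhibitor. RNA was sequenced from human breast cancer lines given 500 nM MitoQ, a ubiquinone joined to a triphenylphosphonium cation that carries it into mitochondria, for 48 h, and from controls of each line. MDA-MB-231, a triple-negative line at passage 25, had 5 control and 5 MitoQ libraries, and SKBR3, a line with amplified ERBB2 at passage 10, had 3 and 3. Both lines were derived from pleural effusions of breast adenocarcinoma and were grown in the same medium. The sources used here do not give what the controls received, and each group is a single line, so the effect of line and that of passage cannot be told apart.

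The proteasome degrades proteins that carry ubiquitin chains. Its barrel-shaped core stacks rings of alpha subunits, which gate the entrance, around rings of beta subunits, some of which hold the proteolytic sites. A cap of ATPases and other subunits recognises, unfolds and threads the substrate. In cells exposed to interferon, PSMB8, PSMB9 and PSMB10 take the places of the catalytic subunits PSMB5, PSMB6 and PSMB7 in newly made cores, which changes the peptides released for antigen presentation. When proteasome activity falls short, the transcription factor NRF1, encoded by NFE2L1, can raise the subunit genes together through antioxidant response elements, the sites that it shares with NRF2.

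Promoters of 6 members to which the results below return are shown first. Among the members called, PSMC2 had the largest fall in both lines and PSMB10 rose in both. PSME1 and PSME2 form an activator, and the effect of MitoQ on PSME1 differed between the lines. For PSME2 such a difference was called in the reported fit and kept in 12 of 23 alternative settings. PSMB9 was the member called with the largest deficit in SKBR3 controls, where it had few counts, and PSMD3 had the largest excess there. Each line gives the 250 bases before the RefSeq start of the gene (GRCh38.p14), 5′ to 3′ on the gene's strand. That start can lie inside the wider span that the GENCODE annotation gives for the same gene. Capitals mark matches on either strand to the antioxidant response element core TGACNNNGC, the gamma-activated site TTCNNNGAA, the interferon-stimulated response element core (GAAA, any 2 bases, GAAA) or the CCAAT box CCAAT. No match of one motif overlapped a match of another in these windows.
PSMC2 (chr7:103347393-103347642, plus strand): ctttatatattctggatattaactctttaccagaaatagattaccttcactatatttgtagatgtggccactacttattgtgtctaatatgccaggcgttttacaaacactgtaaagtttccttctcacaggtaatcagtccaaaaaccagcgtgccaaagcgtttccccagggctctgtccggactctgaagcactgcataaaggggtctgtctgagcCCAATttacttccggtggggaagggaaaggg
PSMB10 (chr16:67936851-67937100, minus strand): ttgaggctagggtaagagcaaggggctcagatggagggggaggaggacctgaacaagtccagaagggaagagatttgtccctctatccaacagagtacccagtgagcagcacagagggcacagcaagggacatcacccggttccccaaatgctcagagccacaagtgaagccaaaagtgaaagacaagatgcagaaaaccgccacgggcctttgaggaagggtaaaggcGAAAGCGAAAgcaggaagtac
PSMB9 (chr6:32853942-32854191, plus strand): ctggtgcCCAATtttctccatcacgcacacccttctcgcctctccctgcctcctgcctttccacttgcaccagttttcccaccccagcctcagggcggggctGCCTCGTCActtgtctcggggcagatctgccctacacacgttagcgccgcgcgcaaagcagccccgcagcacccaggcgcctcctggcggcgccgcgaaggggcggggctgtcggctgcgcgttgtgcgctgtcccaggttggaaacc
PSME1 (chr14:24135944-24136193, plus strand): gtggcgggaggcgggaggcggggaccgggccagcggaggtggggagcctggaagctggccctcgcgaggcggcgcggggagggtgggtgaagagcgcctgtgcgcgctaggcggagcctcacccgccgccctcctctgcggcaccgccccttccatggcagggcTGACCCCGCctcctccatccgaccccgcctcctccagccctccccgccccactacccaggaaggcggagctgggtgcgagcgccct
PSME2 (chr14:24146611-24146860, minus strand): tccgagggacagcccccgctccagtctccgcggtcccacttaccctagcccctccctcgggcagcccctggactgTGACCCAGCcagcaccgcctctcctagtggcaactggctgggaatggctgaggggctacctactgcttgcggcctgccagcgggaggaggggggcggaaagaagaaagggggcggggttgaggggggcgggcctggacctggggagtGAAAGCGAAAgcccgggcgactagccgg
PSMD3 (chr17:39980557-39980806, plus strand): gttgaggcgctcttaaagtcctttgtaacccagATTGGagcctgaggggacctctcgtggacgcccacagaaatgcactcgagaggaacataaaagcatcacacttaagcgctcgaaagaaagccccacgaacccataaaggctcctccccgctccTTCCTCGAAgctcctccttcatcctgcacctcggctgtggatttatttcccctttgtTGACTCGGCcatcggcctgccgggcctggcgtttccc

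A window was found for 42 of the 48 members, and PSMA7, PSMB1, PSMB6, PSMB7, PSMD4 and PSMG3 had none in the table used. The interferon-stimulated core in PSMB10 begins 21 bases before the start, and that in PSME2 begins 28 bases before it. It was present for 5 of 42 members (11.9%; PSMA4, PSMB4, PSMB10, PSME2 and PSMG4), and for 3.71% of 27305 RefSeq genes. The antioxidant core was present for 13 members (31%), against 13.2% of all genes, and among the windows shown it lies in PSMB9, PSME1, PSME2 and PSMD3. Gamma-activated sites were present for 7 members (16.7%, against 8.09%) and CCAAT boxes for 19 (45.2%, against 37.0%). A match describes the letters of a window and is not a binding site.

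Libraries held 14723152 to 29294865 estimated counts. A gene with 0 counts could still have up to 3, equal to 0.102 to 0.204 CPM (counts per 1000000 counts of the scaled library), a limit that covers counting error only. The lines matched their labels: the summed level of 6 SKBR3 markers was 9227 to 10651 CPM in SKBR3 controls and 713 to 773 CPM in MDA-MB-231 controls, and that of 6 MDA-MB-231 markers 21.1 to 23.3 and 7163 to 7702 CPM. Of 6 leukocyte markers, 5 had group means under 1 CPM in both lines, while CD74, the invariant chain of MHC class II, lay at 42.1 CPM in MDA-MB-231 controls, 61.4 CPM with MitoQ and 0.191 CPM in SKBR3 controls. Its part in the results was not tested. Summed over 3 endothelium markers, levels were 19.9 to 24.9 CPM in SKBR3 controls and 2.26 to 3.35 CPM in MDA-MB-231 controls. Over 4 fibroblast markers they were 7.72 to 9.34 CPM in SKBR3 controls and 8.56 to 10.3 CPM in MDA-MB-231 controls. On the first principal component of the SKBR3 libraries control replicate 3 lay at -7.24, the other controls at -24.6 and -23.6 and the MitoQ libraries at 15.9 to 21.2. In MDA-MB-231, MitoQ replicate 2 lay apart on the second component, at -32.4 against -7.81 to 13.2 for the others. The labels do not say whether replicates came from separate cultures, so p-values measure the spread between these libraries, which may be technical. In bulk RNA, fewer cells of a type and less RNA per cell cannot be told apart.

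Most proteasome genes fell with MitoQ in both lines. In MDA-MB-231, 46 members could be tested and 35 were lower (76.1%), where 27.6% of 15304 genes were called lower. Another 3 were higher, PSMB10, PSMG4 and PSMF1, where 29.9% of genes were called higher. In SKBR3, 44 could be tested and 26 were lower (59.1%), where 14.1% of 15026 genes were called lower. PSMB10 and PSME1 were higher there, where 13.8% of genes were called higher. The median log2 fold change over the tested members was -0.30 in MDA-MB-231 and -0.21 in SKBR3, and over all tested genes 0.01 and -0.00. For 30 of the 35 and 25 of the 26 lower members, every MitoQ library was below every control. Such genes were 22.4% and 13.3% of all tested and 81.2% and 94.2% of all called lower, so among called genes the members' shares were near the background. Of 44 members tested in both lines, the same 24 were lower in both, where 6.91% of 13785 genes were. Only PSMB10 was higher in both (6.3% of genes), and only PSME1 was lower in MDA-MB-231 and higher in SKBR3 (3.55% of genes).

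The changes were small. In each line 1 called member reached 1.5-fold, PSMC2 in MDA-MB-231 and PSMB10 in SKBR3, while 17.9% of all genes in MDA-MB-231 and 3.20% in SKBR3 were called with at least that change. Together the members took 0.683 to 0.709% of the counts in MDA-MB-231 controls and 0.580 to 0.598% with MitoQ. In SKBR3 they took 0.573 to 0.589% in controls and 0.511 to 0.523% with MitoQ, so the groups did not overlap in either line. PSM pseudogene rows held 0.271 to 0.681% of the members' counts per library, a share that leaves out pseudogenes with other symbols. Without SKBR3 control replicate 3 there were 26 lower and 2 higher members in SKBR3, and without MDA-MB-231 MitoQ replicate 2 there were 33 lower and 3 higher members in that line.

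**Figure D1:**
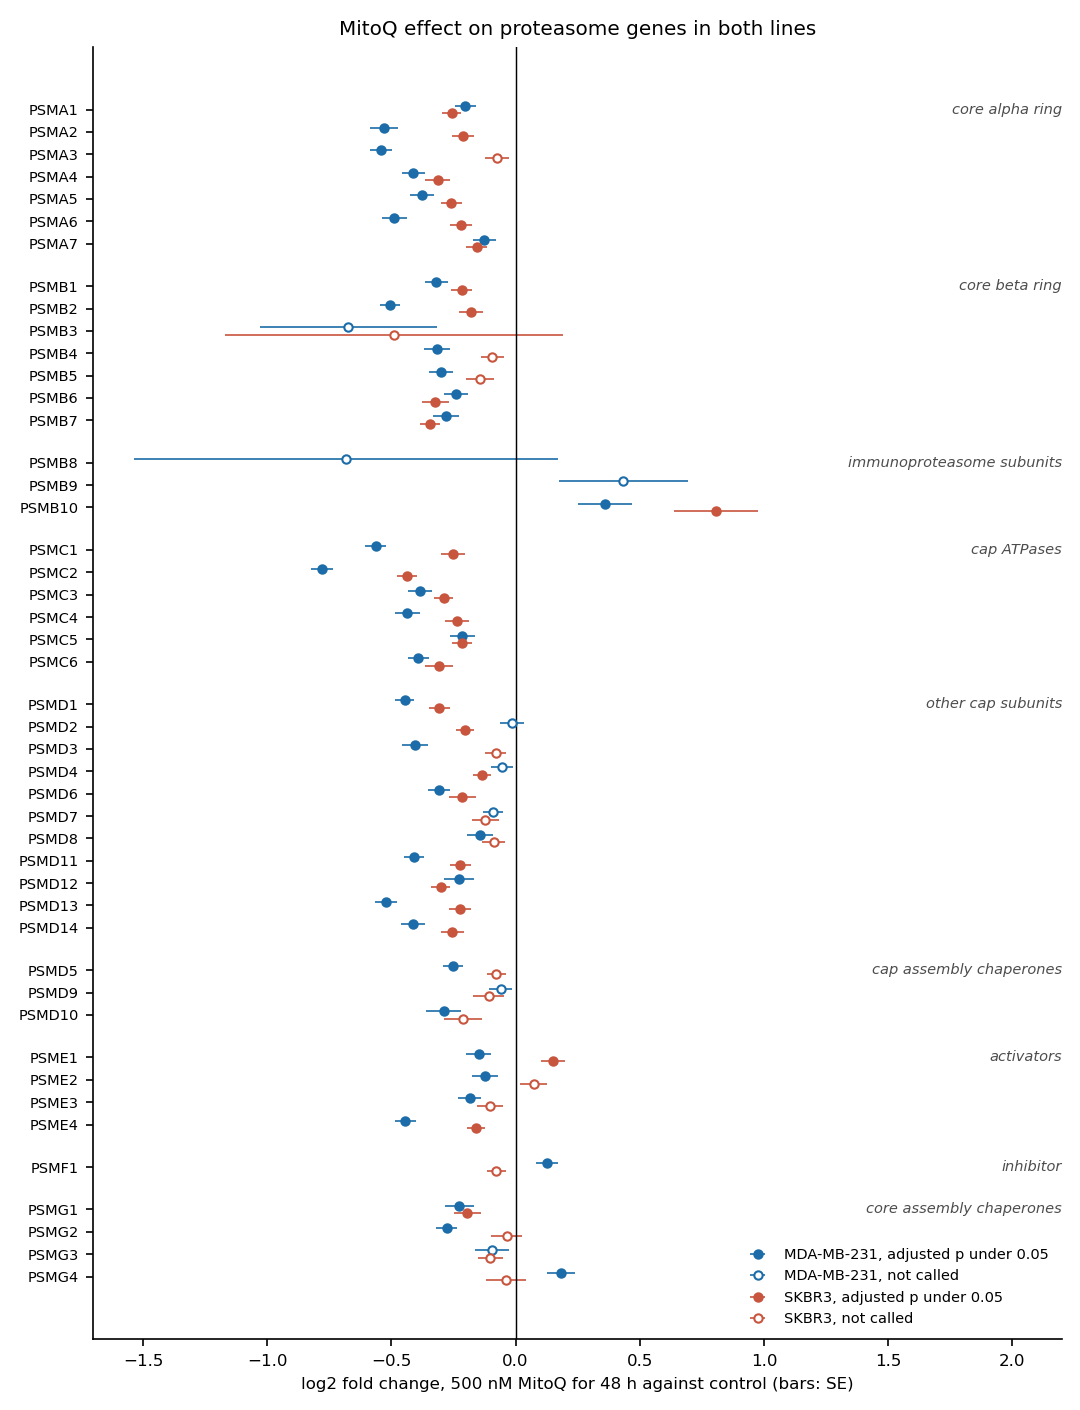
Log2 fold change of each tested member with MitoQ against control (horizontal axis, bars are SE), with members grouped by role on the vertical axis; blue is MDA-MB-231, red is SKBR3, filled points have an adjusted p under 0.05 and open points do not. Most points lie left of 0, PSMC2 farthest among those called (-0.78 and -0.44), and PSMB10 lies right of 0 in both lines (0.36 and 0.81).

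The alpha ring was lower with MitoQ in both lines, apart from PSMA3 in SKBR3. In MDA-MB-231 all 7 alpha genes were lower, with log2 fold changes from -0.54 to -0.13, and in SKBR3 6 of 7 were lower (medians -0.41 and -0.22). Of all genes, 27.6% and 14.1% were called lower in these lines. PSMA3 (ENSG00000100567, chr14:58244831-58272012, plus strand, GRCh38) lay at 171, 169, 172, 178 and 193 CPM in MDA-MB-231 controls and at 118, 119, 126, 121 and 113 CPM with MitoQ, a log2 fold change of -0.54 ± 0.05 (SE, adjusted p = 7.97e-09). No MitoQ library of that line came near the lowest control. In SKBR3 PSMA3 was at 118, 103 and 110.2 CPM in controls and 101, 109 and 109 CPM with MitoQ, a change of -0.07 ± 0.05 (SE, adjusted p = 0.281), with groups that overlapped. PSMA2 (chr7:42916857-42932223, minus strand) was at 107, 101, 111, 105 and 120.5 CPM in MDA-MB-231 controls and 70.6, 71.4, 83.6, 75.1 and 70.4 CPM with MitoQ, a change of -0.53 ± 0.06 (SE, adjusted p = 1.49e-07). In SKBR3, where it was more abundant, it went from 168, 151 and 158 to 133, 143 and 142 CPM, a change of -0.21 ± 0.04 (SE, adjusted p = 0.00239). In neither line did its groups overlap.

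PSMA4 was the alpha gene with the largest fall in SKBR3, from 126, 109 and 117 CPM in controls to 96.1, 93.1 and 99.6 CPM with MitoQ, a log2 fold change of -0.31 ± 0.05 (SE, adjusted p = 0.000392). In MDA-MB-231 it went from 176, 173, 182, 170.0 and 196 to 133, 126, 139.5, 137 and 128 CPM, a change of -0.41 ± 0.05 (SE, adjusted p = 4.4e-07). Every MitoQ library was below every control for this gene in both lines. PSMA1, PSMA5 and PSMA6 were lower in both lines, with changes of -0.20, -0.38 and -0.49 in MDA-MB-231 and -0.26, -0.26 and -0.22 in SKBR3. PSMA7, the most abundant alpha gene per kilobase, had the smallest called change of the ring, -0.13 ± 0.05 (SE, adjusted p = 0.0237) in MDA-MB-231 and -0.16 ± 0.04 (SE, adjusted p = 0.0153) in SKBR3. Its call was lost when single libraries were left out, in the first line without MDA-MB-231 control replicate 1, 3 or 5 or MDA-MB-231 MitoQ replicate 1 (adjusted p = 0.0574 to 0.0661) and in the other without SKBR3 control replicate 3 or SKBR3 MitoQ replicate 1 or 2 (adjusted p = 0.0786 to 0.131). Of the annotated 31-base stretches of PSMA6, PSMA2 and PSMA1, 85.9%, 51.6% and 47.7% occur in transcripts of other annotated genes, AL121594.1, AC010132.3 and AC018523.2 in the main, so their estimated counts depend on how shared reads were divided.

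The genes of the 3 proteolytic sites fell in MDA-MB-231, and 2 of them were called lower in SKBR3, where 27.6% and 14.1% of all genes were called lower. PSMB5 (ENSG00000100804), the chymotrypsin-like site and the main target of proteasome inhibitor drugs, lay at 179.8, 171, 174, 163 and 169 CPM in MDA-MB-231 controls and 124, 133, 139, 143 and 145 CPM with MitoQ, a log2 fold change of -0.30 ± 0.05 (SE, adjusted p = 2.22e-05). In SKBR3 it was at 134, 113 and 121 CPM in controls and 111, 108 and 119.6 CPM with MitoQ, a change of -0.14 ± 0.06 (SE, adjusted p = 0.0709), and the groups overlapped. With a replicate block in the edgeR fit PSMB5 was called lower in that line (-0.14, adjusted p = 0.0198). PSMB6, the caspase-like site, went from 137, 137, 139, 131 and 137 to 105, 107, 115, 121 and 120.4 CPM in MDA-MB-231, a change of -0.24 ± 0.05 (SE, adjusted p = 0.000216). The same gene went from 66.2, 62.2 and 66.6 to 48.4, 53.8 and 56.3 CPM in SKBR3, a change of -0.32 ± 0.05 (SE, adjusted p = 0.000498). No library of one PSMB6 group reached into the other in either line.

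PSMB7, the trypsin-like site, was at 177, 178, 186, 171 and 184 CPM in MDA-MB-231 controls and 135, 129, 149.96, 155 and 158 CPM with MitoQ, a log2 fold change of -0.28 ± 0.05 (SE, adjusted p = 0.000133). In SKBR3 it fell from 128, 124 and 125 to 100.02, 97.6 and 104 CPM, a change of -0.34 ± 0.04 (SE, adjusted p = 3.49e-05), the largest of the beta genes called in that line. MitoQ and control values were separate in both lines. Among the non-catalytic beta genes, PSMB1 and PSMB2 were lower in both lines (-0.32 and -0.51 in MDA-MB-231, -0.22 and -0.18 in SKBR3). PSMB4 was lower in MDA-MB-231 (-0.32 ± 0.05 SE, adjusted p = 3.19e-05) and had -0.09 ± 0.05 (SE, adjusted p = 0.149) in SKBR3. The SKBR3 call of PSMB2 was lost without SKBR3 control replicate 1 or SKBR3 MitoQ replicate 1 or 2 (adjusted p = 0.0611 to 0.118). PSMB3 had a change of -0.67 ± 0.36 (SE, adjusted p = 0.142) in MDA-MB-231 and -0.49 ± 0.68 (SE, adjusted p = 0.672) in SKBR3 and was not called. It was the core gene with the widest scatter: 24.6, 60.6, 51.4, 47.6 and 27.5 CPM in MDA-MB-231 controls and 24.0, 4.26 and 17.8 CPM in SKBR3 controls.

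**Figure D2:**
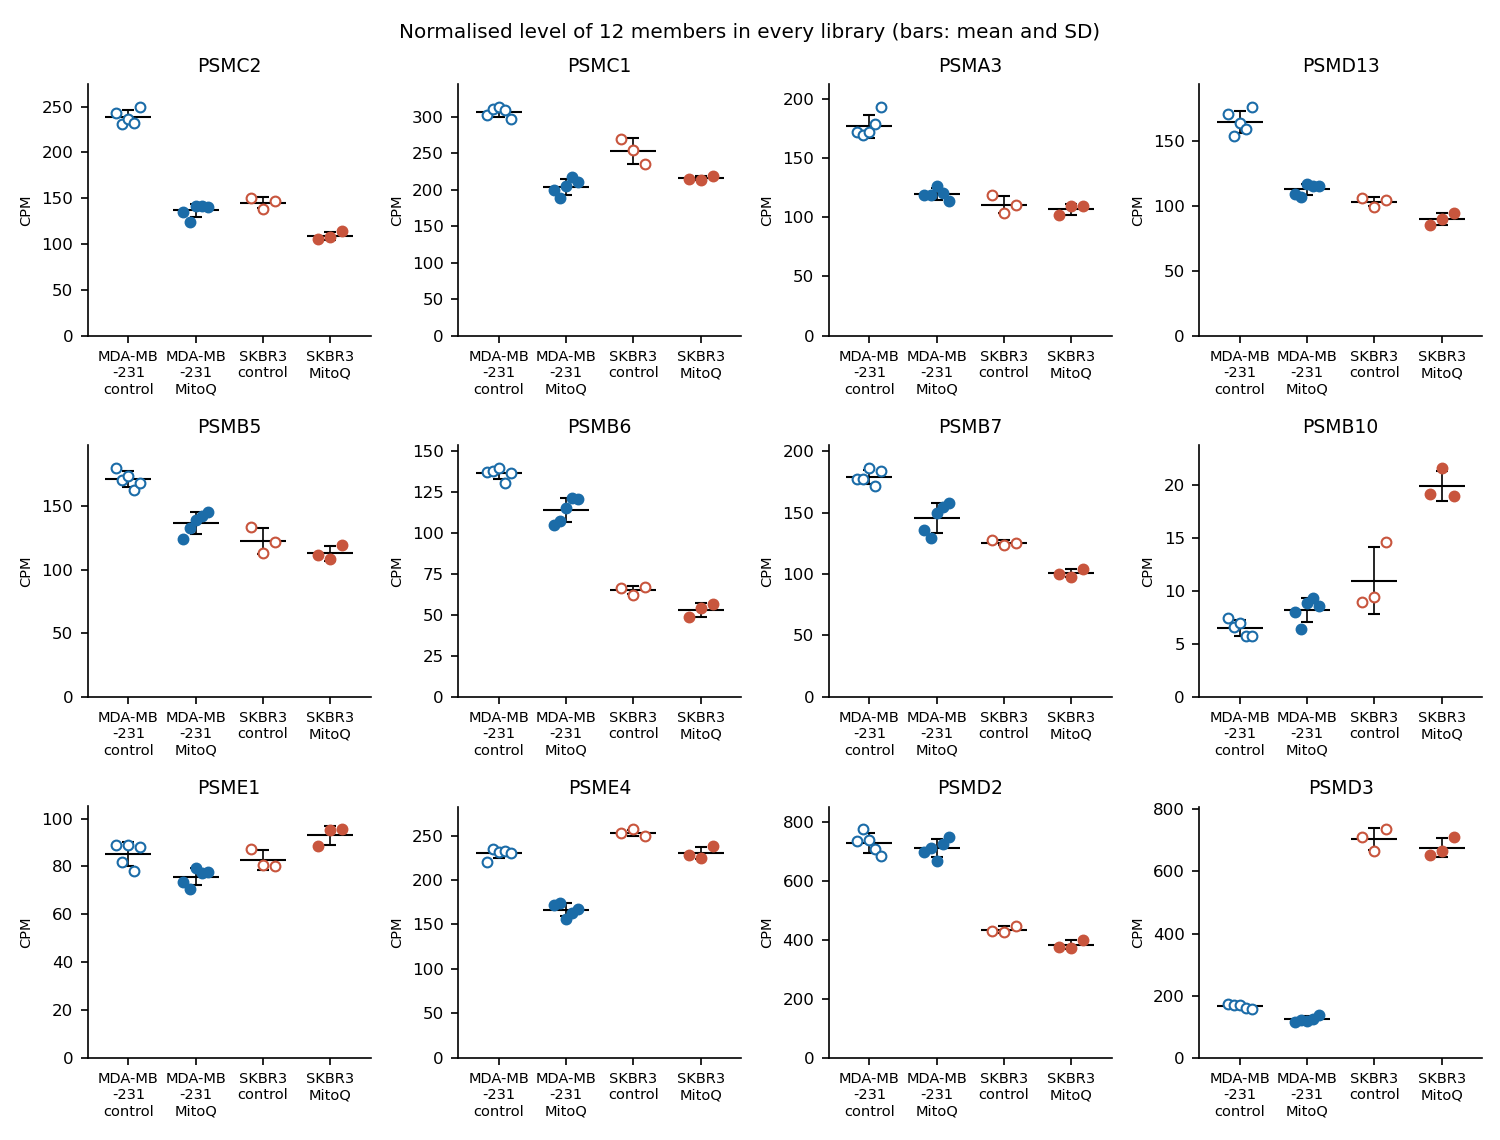
Normalised level (CPM, vertical axes from 0) of 12 members in each library of the 4 groups; open points are controls, filled points MitoQ libraries, blue MDA-MB-231 and red SKBR3, and bars give the mean and SD. MitoQ libraries lie below the controls for PSMC2, PSMC1, PSMD13, PSMB6 and PSMB7 in both lines and above them for PSMB10 and PSME1 in SKBR3, and PSMD3 in SKBR3 lies at 653 CPM or higher.

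The 6 ATPases of the cap, which unfold the substrate, were lower in both lines without exception, where 6.91% of all genes were. Their median log2 fold changes were -0.41 in MDA-MB-231 and -0.27 in SKBR3. PSMC2 (ENSG00000161057, chr7:103344254-103369395, plus strand) lay at 243, 231, 237, 232 and 249 CPM in MDA-MB-231 controls and at 135, 124, 142, 142 and 140.3 CPM with MitoQ. The log2 fold change was -0.78 ± 0.04 (SE, adjusted p = 2.52e-11), a level 1.72-fold lower. In SKBR3 it lay at 150.3, 138 and 147 CPM in controls and 105, 108 and 114 CPM with MitoQ, a change of -0.44 ± 0.04 (SE, adjusted p = 7.25e-06) and 1.35-fold lower. The groups were separate in both lines, and without the libraries that stood apart the changes were -0.74 (adjusted p = 2.88e-12) and -0.42 (adjusted p = 1.25e-06). PSMC1 went from 302, 310.2, 313, 309 and 297 to 199.998, 188, 205, 217 and 211 CPM in MDA-MB-231, a change of -0.56 ± 0.04 (SE, adjusted p = 1.98e-09). In SKBR3 it went from 269.5, 254 and 235 to 215, 213 and 218 CPM, a change of -0.25 ± 0.05 (SE, adjusted p = 0.00186). The fall of PSMC1 was thus visible in every library of both lines.

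PSMC6 stood at 172, 160.2, 165, 169.6 and 179 CPM in MDA-MB-231 controls and 124, 125, 134, 129 and 123 CPM with MitoQ, a log2 fold change of -0.39 ± 0.04 (SE, adjusted p = 2.5e-07). Its SKBR3 values were 66.5, 59.3 and 59.0 CPM in controls and 49.9, 49.4 and 52.1 CPM with MitoQ, a change of -0.31 ± 0.06 (SE, adjusted p = 0.001), without overlap. PSMC3, PSMC4 and PSMC5 changed by -0.38, -0.44 and -0.22 in MDA-MB-231 and by -0.29, -0.24 and -0.22 in SKBR3. For PSMC1 and PSMC6, 33.4% and 33.4% of the 31-base stretches also occur in other annotated transcripts, processed pseudogenes in the main.

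Of the 11 other cap subunits, 8 were lower in MDA-MB-231 and 8 in SKBR3, and 6 of them in both (PSMD1, PSMD6, PSMD11, PSMD12, PSMD13 and PSMD14). The shares of all genes were 27.6%, 14.1% and 6.91%. PSMD13, a lid subunit (chr11:236546-252984, plus strand), lay at 171, 154, 164, 159 and 176 CPM in MDA-MB-231 controls and 109.7, 107, 117, 115 and 116 CPM with MitoQ, a log2 fold change of -0.52 ± 0.04 (SE, adjusted p = 9.5e-09). In SKBR3 it lay at 106, 99.6 and 105 CPM in controls and 85.5, 90.0 and 94.8 CPM with MitoQ, a change of -0.22 ± 0.04 (SE, adjusted p = 0.00159). Neither line had a MitoQ library as high as a control. PSMD1, one of the pair of large scaffold subunits, changed by -0.45 ± 0.04 (SE, adjusted p = 1.13e-08) in MDA-MB-231 and -0.31 ± 0.04 (SE, adjusted p = 0.000136) in SKBR3. PSMD2, the other, was not called in MDA-MB-231, where its values were 735, 774, 737, 708 and 682 CPM in controls and 697, 710.1, 666, 724 and 748 CPM with MitoQ, a change of -0.01 ± 0.05 (SE, adjusted p = 0.81) with groups that overlapped. In SKBR3 PSMD2 went from 429, 425 and 447 to 376, 372 and 399.6 CPM, a change of -0.20 ± 0.04 (SE, adjusted p = 0.00102).

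PSMD14, the deubiquitinase that removes the chain from the substrate, changed by -0.41 ± 0.05 (SE, adjusted p = 5.02e-07) in MDA-MB-231 and -0.25 ± 0.05 (SE, adjusted p = 0.000978) in SKBR3. PSMD7, its partner, had -0.09 ± 0.04 (SE, adjusted p = 0.0554) and -0.12 ± 0.05 (SE, adjusted p = 0.108) and was not called, although its groups did not overlap in either line. PSMD4, a ubiquitin receptor, was not called in MDA-MB-231 (-0.06 ± 0.04 SE, adjusted p = 0.302) and was lower in SKBR3 (-0.14 ± 0.04 SE, adjusted p = 0.0156). Of the 31-base stretches of PSMD4 and PSMD2, 39.2% and 19.3% also occur in annotated pseudogenes. PSMD3 and PSMD8 were lower in MDA-MB-231 (-0.40 and -0.14) and had changes of -0.08 and -0.09 in SKBR3, with adjusted p of 0.161 and 0.166. Single libraries decided some of these calls. The MDA-MB-231 call of PSMD8 was lost without MDA-MB-231 control replicate 1, 3 or 5 or MDA-MB-231 MitoQ replicate 1, 2 or 3 (adjusted p = 0.0507 to 0.0894), the SKBR3 call of PSMD4 without SKBR3 control replicate 1 or SKBR3 MitoQ replicate 1 or 2 (adjusted p = 0.0602 to 0.107), and that of PSMD6 without SKBR3 control replicate 2 or SKBR3 MitoQ replicate 1 (adjusted p = 0.0503 to 0.0678).

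Of the 7 assembly chaperones, 4 were lower and 1 higher in MDA-MB-231, where 27.6% and 29.9% of all genes were. In SKBR3 1 was lower, a share near the 14.1% of all genes. PSMD5 and PSMD10, which help to build the ATPase base of the cap, were lower in MDA-MB-231 (-0.25 ± 0.04 SE, adjusted p = 2.83e-05 and -0.29 ± 0.07 SE, adjusted p = 0.00161), and PSMD9 was not (-0.06 ± 0.05 SE, adjusted p = 0.29). By edgeR none of these 3 was called in SKBR3, where PSMD5, PSMD10 and PSMD9 had changes of -0.08, -0.21 and -0.11 and adjusted p of 0.154, 0.0514 and 0.216. The value for PSMD10 passed the threshold without SKBR3 control replicate 3, at -0.23 (adjusted p = 0.0485). For PSMD9, 40.2% of the 31-base stretches also occur in other annotated transcripts, those of AC069503.2 in the main. Of the core chaperones, PSMG1, which pairs with PSMG2 on the alpha ring, was lower in both lines (-0.23 ± 0.06 SE, adjusted p = 0.00255 and -0.19 ± 0.06 SE, adjusted p = 0.0181), the SKBR3 call being lost without SKBR3 control replicate 1 or 2 or SKBR3 MitoQ replicate 1 or 2 (adjusted p = 0.0593 to 0.119). PSMG2 was lower in MDA-MB-231 (-0.28 ± 0.04 SE, adjusted p = 1.66e-05) and had -0.04 ± 0.06 (SE, adjusted p = 0.726) in SKBR3. PSMG3 was called in neither line (-0.09 and -0.10).

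PSMG4, the partner of PSMG3, went the other way in MDA-MB-231: it lay at 27.0, 22.9, 24.7, 26.2 and 25.5 CPM in controls and 28.8, 29.3, 28.0, 27.1 and 27.8 CPM with MitoQ, a log2 fold change of 0.18 ± 0.06 (SE, adjusted p = 0.00869). All 5 MitoQ libraries were above all 5 controls, by a narrow margin. In SKBR3 it lay at 13.4, 14.5 and 13.8 CPM in controls and at 13.5, 13.8 and 13.8 CPM with MitoQ, a change of -0.04 ± 0.08 (SE, adjusted p = 0.763). PSMF1, an inhibitor of the core in purified systems, lay at 131, 135, 130.0, 124 and 126 CPM in MDA-MB-231 controls and 133, 134, 136, 142 and 149.95 CPM with MitoQ, a change of 0.13 ± 0.04 (SE, adjusted p = 0.0213), with overlapping groups. This rise did not hold without MDA-MB-231 control replicate 4 or 5 or MDA-MB-231 MitoQ replicate 5 (adjusted p = 0.0563 to 0.0657). SKBR3 held 159.9, 148 and 160.2 CPM of PSMF1 in controls and 147, 149 and 155 CPM with MitoQ, a change of -0.08 ± 0.04 (SE, adjusted p = 0.165).

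For 3 of the 4 activators, which open the core in place of the cap, the effect of MitoQ was called higher in SKBR3 by edgeR, where 19.1% of all genes were. Of these 3, PSME2 kept that call in 12 of 23 alternative settings. PSME1 (ENSG00000092010, chr14:24136158-24138967, plus strand) and PSME2 (4394 bases away on the minus strand) together form the interferon-inducible activator ring. PSME1 lay at 89.1, 81.9, 88.9, 78.0 and 88.0 CPM in MDA-MB-231 controls and 73.6, 70.7, 79.2, 77.2 and 77.9 CPM with MitoQ, a log2 fold change of -0.15 ± 0.05 (SE, adjusted p = 0.0145), and the groups overlapped. In SKBR3 it lay at 87.3, 80.4 and 80.3 CPM in controls and 88.5, 95.1 and 95.5 CPM with MitoQ, a change of 0.15 ± 0.05 (SE, adjusted p = 0.0269), with every MitoQ library above every control. The SKBR3 call was lost without SKBR3 control replicate 2 or SKBR3 MitoQ replicate 2 or 3 (adjusted p = 0.0589 to 0.0903). It was also lost with DESeq2 and with a single fit over all 16 libraries. The MDA-MB-231 call of PSME1 was lost when libraries were scaled by their totals alone. The difference between the lines in the effect on PSME1 was 0.34 ± 0.08 (SE, adjusted p = 0.0012), and it remained called without each library in turn.

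PSME2 lay at 65.9, 63.3, 69.1, 60.9 and 68.4 CPM in MDA-MB-231 controls and 56.0, 54.4, 60.7, 62.6 and 62.6 CPM with MitoQ, a log2 fold change of -0.12 ± 0.05 (SE, adjusted p = 0.0489) that overlapped between groups and was lost without MDA-MB-231 control replicate 1, 2, 3 or 5 or MDA-MB-231 MitoQ replicate 1, 2 or 3 (adjusted p = 0.0561 to 0.134). In SKBR3 it was at 74.4, 71.2 and 69.2 CPM in controls and 69.8, 77.2 and 82.0 CPM with MitoQ, a change of 0.07 ± 0.05 (SE, adjusted p = 0.359). The values of the SKBR3 groups overlapped. Of the 31-base stretches of PSME2, 24.5% also occur in annotated pseudogenes. PSME3, which forms a nuclear activator ring of its own, was at 223, 229.6, 225, 211 and 222 CPM in MDA-MB-231 controls and 177, 199, 187, 199.9 and 199 CPM with MitoQ, a change of -0.19 ± 0.05 (SE, adjusted p = 0.00168). In SKBR3 it was at 106, 97.7 and 98.7 CPM in controls and at 89.6, 92.2 and 104 CPM with MitoQ, a change of -0.10 ± 0.05 (SE, adjusted p = 0.156). PSME3 was thus separate between groups in MDA-MB-231 and overlapped in SKBR3.

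PSME4, a large nuclear activator that is known for histone turnover in the testis, had the largest fall of the activators. It lay at 220.4, 235, 232, 233 and 230.2 CPM in MDA-MB-231 controls and 172, 174, 157, 163 and 167 CPM with MitoQ, a log2 fold change of -0.44 ± 0.04 (SE, adjusted p = 5.69e-08). In SKBR3 it went from 253, 257 and 249.8 to 228, 225 and 238 CPM, a change of -0.16 ± 0.04 (SE, adjusted p = 0.00544). Groups were separate in both lines, and the SKBR3 call was lost without SKBR3 control replicate 2 or SKBR3 MitoQ replicate 2 (adjusted p = 0.053 to 0.0844).

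PSMB10, the immunoproteasome counterpart of PSMB7, was the member that rose in both lines while its counterpart fell. PSMB10 (ENSG00000205220, chr16:67934502-67937087, minus strand) lay at 7.42, 6.57, 6.97, 5.76 and 5.70 CPM in MDA-MB-231 controls and 8.03, 6.36, 8.87, 9.27 and 8.59 CPM with MitoQ, a log2 fold change of 0.36 ± 0.11 (SE, adjusted p = 0.00782). Of the MitoQ libraries, replicate 2 lay among the controls, and without it the change was 0.45 (adjusted p = 0.000428). In SKBR3 it lay at 8.89, 9.39 and 14.6 CPM in controls and 19.1, 21.6 and 19.0 CPM with MitoQ, a change of 0.81 ± 0.17 (SE, adjusted p = 0.00872), a level 1.75-fold higher. Control replicate 3 was the highest SKBR3 control, yet still below the MitoQ libraries. Without that library the change was 1.12 (adjusted p = 2.21e-07). For PSMB10, 41.5% of the 31-base stretches occur in transcripts of another annotated gene, AC040162.1.

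Taken as counts per 100 counts of PSMB7, PSMB10 stood at 4.20, 3.71, 3.75, 3.38 and 3.11 in MDA-MB-231 controls and 5.94, 4.93, 5.93, 6.0 and 5.45 with MitoQ. The ratio was 1.56-fold higher with MitoQ (log2 difference 0.64, exact two-sided permutation p = 0.00794, the smallest that 5 against 5 allow). In SKBR3 the ratio was 6.97, 7.61 and 11.7 in controls and 19.2, 22.1 and 18.2 with MitoQ, 2.32-fold higher (log2 difference 1.21, exact two-sided permutation p = 0.1, the smallest that 3 against 3 allow). In both lines every MitoQ library lay above every control. Of the 9 ratio comparisons run, none had an adjusted p under 0.05, and these ratios had Benjamini-Hochberg adjusted p of 0.0714 and 0.18 by the exact test.

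The other immunoproteasome genes had few counts. PSMB9 (chr6:32844136-32859585, plus strand) had 40, 26, 18, 15 and 27 counts in MDA-MB-231 controls and 30, 42, 19, 35 and 36 with MitoQ, a log2 fold change of 0.43 ± 0.26 (SE, adjusted p = 0.165), with overlapping groups. In SKBR3 it had 3, 3 and 3 counts in controls and 0, 9 and 0 with MitoQ and was not tested there. Its ratio to PSMB6 in MDA-MB-231 was 1.64-fold higher with MitoQ (exact permutation p = 0.0556, adjusted p = 0.125). PSMB8 (chr6:32840717-32844703, minus strand) had 130, 7, 76, 11 and 135 counts in MDA-MB-231 controls and 86, 15, 18, 82 and 16 with MitoQ, a change of -0.68 ± 0.85 (SE, adjusted p = 0.531). Within the MDA-MB-231 controls alone the PSMB8 counts ran from 7 to 135. SKBR3 held 1, 15 and 1 counts of PSMB8 in controls and 3, 12 and 1 with MitoQ. The annotated spans of PSMB8 and PSMB9 overlap by 568 bases on opposite strands, and the sources used here do not give whether counting used strand. The tissue-restricted subunits were hardly detected: PSMA8, of the testis, had 1 count and PSMB11, of the thymus, 3 counts over the 16 libraries.

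**Figure D3:**
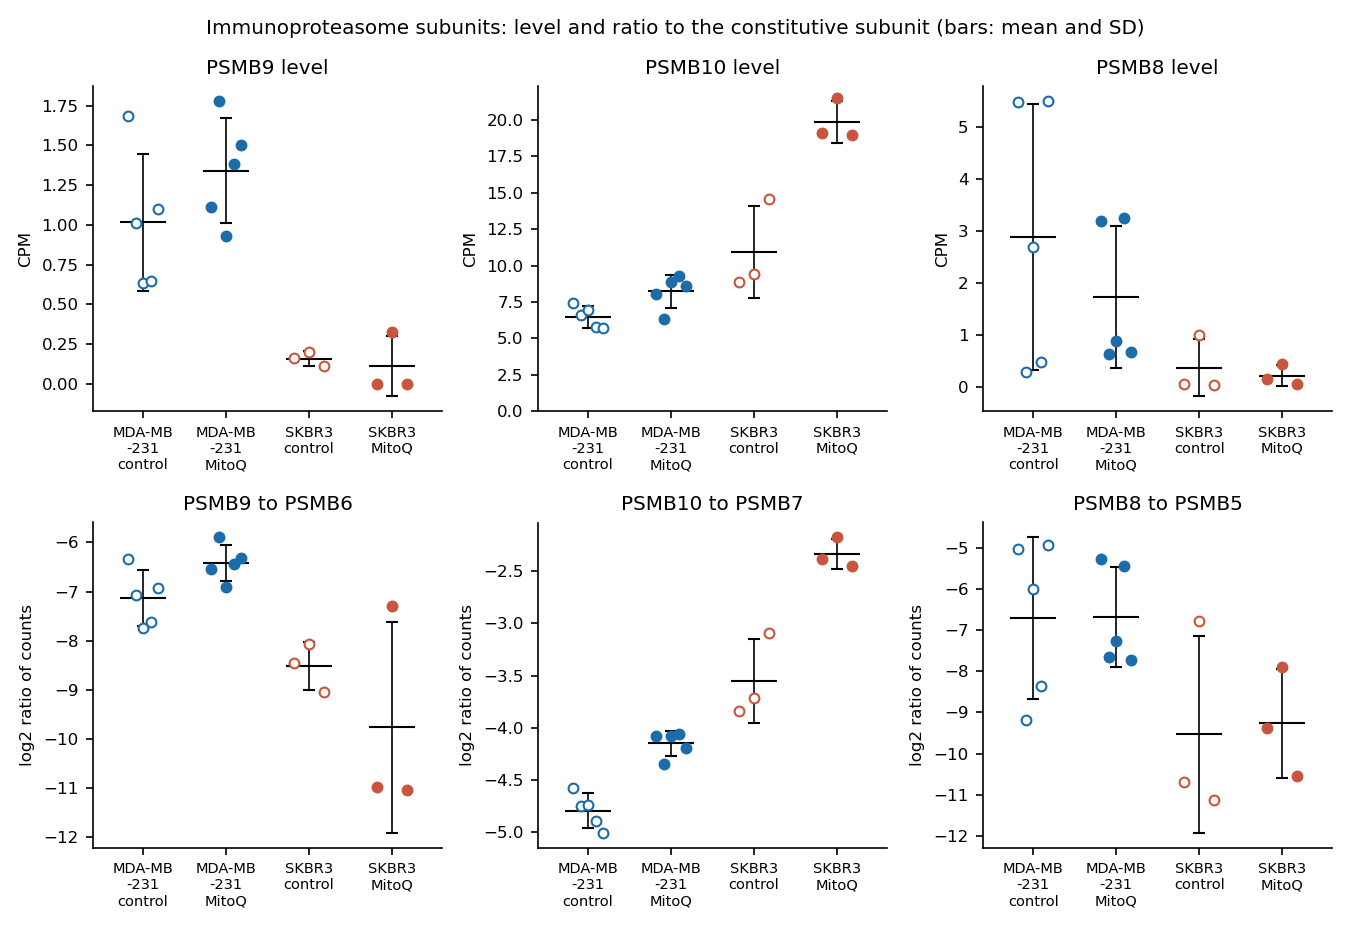
Immunoproteasome subunits in each library: level in CPM (upper row, vertical axes) and log2 ratio of counts to the constitutive counterpart (lower row), with open points for controls, filled points for MitoQ, blue for MDA-MB-231, red for SKBR3, and bars for mean and SD. PSMB10 and its ratio to PSMB7 are higher with MitoQ in both lines (ratio 1.56-fold and 2.32-fold), while PSMB8 scatters widely within groups. Neither of these ratios passed the exact permutation test after adjustment (adjusted p = 0.0714 and 0.18).

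The effect of MitoQ itself was compared between the lines with an interaction term over the 16 libraries, where a positive value means a smaller fall, or a larger rise, in SKBR3. Of 46 members, 18 had a higher effect in SKBR3, where 19.1% of 17094 genes were called higher. By edgeR 0 were called lower (14.9% of genes), with 2 at an unadjusted p under 0.05, while DESeq2 and limma voom each called 2 lower, PSMF1 and PSMD2. The median difference was 0.15 over the members and 0.03 over all genes. The largest among the members called were PSMA3 (0.51 ± 0.07 SE, adjusted p = 9.58e-06), PSMC2 (0.39 ± 0.07 SE, adjusted p = 0.000113), PSMB2 (0.37 ± 0.07 SE, adjusted p = 9.53e-05) and PSMD3 (0.37 ± 0.08 SE, adjusted p = 0.000808). For these 4 genes the MDA-MB-231 fall was -0.54, -0.78, -0.51 and -0.40, and the SKBR3 change -0.07, -0.44, -0.18 and -0.08. By role, 3 of 6 ATPases (PSMC1, PSMC2, PSMC4), 3 of 7 alpha genes (PSMA2, PSMA3, PSMA6) and 3 of 4 activators (PSME1, PSME2, PSME4) were among the 18.

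PSMB5 and PSMB10 did not pass the test of the difference (0.20 ± 0.08 SE, adjusted p = 0.0587 and 0.50 ± 0.20 SE, adjusted p = 0.0577). For PSMF1, PSMD2 and PSMG4 the difference was -0.16 ± 0.07 (SE, adjusted p = 0.0697), -0.15 ± 0.07 (SE, adjusted p = 0.104) and -0.18 ± 0.09 (SE, adjusted p = 0.149). When libraries were scaled by their totals alone, the split was 11 higher and 3 lower (PSMF1, PSMD2 and PSMG4). The differences of PSME2 and PSMD14 were lost with that scaling, with DESeq2, with its size factors in edgeR and with a replicate block. That of PSMD14 was also lost with other filters. Some differences rested on single libraries: PSME2 was lost without MDA-MB-231 control replicate 3 or 5, MDA-MB-231 MitoQ replicate 1, SKBR3 control replicate 2 or 3 or SKBR3 MitoQ replicate 2 or 3 (adjusted p = 0.0507 to 0.13), and PSMD14 without MDA-MB-231 control replicate 5, MDA-MB-231 MitoQ replicate 1, SKBR3 control replicate 1 or SKBR3 MitoQ replicate 1 or 3 (adjusted p = 0.0544 to 0.119). PSMC4 was lost without SKBR3 control replicate 2 or SKBR3 MitoQ replicate 3 (adjusted p = 0.0627 to 0.078), PSMB4 without SKBR3 control replicate 2 or SKBR3 MitoQ replicate 3 (adjusted p = 0.0512 to 0.0684) and PSMD1 without SKBR3 MitoQ replicate 3 (adjusted p = 0.0568). Across the 44 members tested in both lines, the MitoQ effects had Pearson r = 0.67 and Spearman rho = 0.54, as a description over genes that share their libraries.

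Without MitoQ, the lines differed in most proteasome genes, as they did in most genes. In SKBR3 controls 32 of 46 members were lower than in MDA-MB-231 controls, where 44.4% of 16398 genes were called lower. Among these 32 was PSMB9, which passed the filter through the MDA-MB-231 libraries. Another 11 were higher, where 42% of genes were called higher. The median difference was -0.48 over the members and -0.02 over all genes. These values use the same control libraries as the MitoQ comparisons. Of the core genes, PSMB2 lay at 93.8, 85.5 and 87.1 CPM in SKBR3 controls and 238, 236, 241, 229 and 236 CPM in MDA-MB-231 controls, a log2 difference of -1.39 ± 0.04 (SE, adjusted p = 3.96e-18). PSMB6 and PSMB1 were also lower in SKBR3 (-1.05 ± 0.04 SE, adjusted p = 9.5e-16 and -0.77 ± 0.04 SE, adjusted p = 5.96e-13), and PSMB4 was higher (0.17 ± 0.05 SE, adjusted p = 0.00211).

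PSMD3, a lid subunit (ENSG00000108344, chr17:39980797-39997960, plus strand), had the largest excess in SKBR3. It lay at 711, 666 and 736 CPM in SKBR3 controls and 173, 171, 171, 158 and 155 CPM in MDA-MB-231 controls, a log2 difference of 2.10 ± 0.04 (SE, adjusted p = 5.69e-21) or 4.30-fold. It is 250371 bases from ERBB2 on chromosome 17, the gene amplified in SKBR3, which lay at 5327 CPM in SKBR3 controls and 54.2 CPM in MDA-MB-231 controls. Copy number was not measured, so its part in this difference was not tested. With MitoQ, PSMD3 lay at 653, 666 and 710.1 CPM in SKBR3 and 114, 122, 117, 126 and 138 CPM in MDA-MB-231. The next member along the chromosome, PSMB3, 923683 bases from ERBB2 on the other side, was called lower in SKBR3 (-1.40 ± 0.54 SE, adjusted p = 0.0455), a call lost without MDA-MB-231 control replicate 2, 3 or 4 or SKBR3 control replicate 2 or 3 (adjusted p = 0.0856 to 0.0985). The other 5 members on chromosome 17 are at least 3093959 bases from ERBB2.

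The other largest excesses in SKBR3 were PSMG3 (1.08 ± 0.06 SE, adjusted p = 3.7e-13), PSMB10 (0.80 ± 0.15 SE, adjusted p = 0.000114), PSMA2 (0.57 ± 0.05 SE, adjusted p = 1.61e-09) and PSMD12 (0.49 ± 0.04 SE, adjusted p = 1.19e-09). PSMG3 lay at 54.3, 50.9 and 55.1 CPM in SKBR3 controls and 28.1, 23.0, 24.7, 25.5 and 27.3 CPM in MDA-MB-231 controls. The largest deficits in SKBR3, besides PSMB2 and PSMB3, were PSMB9 (-2.71 ± 0.47 SE, adjusted p = 1.98e-05), PSMC6 (-1.44 ± 0.05 SE, adjusted p = 5.48e-17) and PSMD7 (-1.36 ± 0.04 SE, adjusted p = 2.02e-17). PSMB9 had 3 counts in each SKBR3 control, the limit given above for an undetected gene. It passed the filter of this comparison through the MDA-MB-231 libraries, so the size of its deficit is uncertain. PSMB8, also at few counts in SKBR3, was not called (-3.28 ± 1.56 SE, adjusted p = 0.0902). PSMC5 and PSME1 were not called (-0.03 ± 0.04 SE, adjusted p = 0.495 and -0.03 ± 0.05 SE, adjusted p = 0.632). The ratio of PSMB10 to PSMB7 was 2.36-fold higher in SKBR3 controls (exact permutation p = 0.0357, the smallest that 3 against 5 allow, adjusted p = 0.107). That of PSMB9 to PSMB6 was 2.61-fold lower (exact permutation p = 0.0357, adjusted p = 0.107), again at few PSMB9 counts in SKBR3. The call of PSME2 as higher in SKBR3 (0.14 ± 0.05 SE, adjusted p = 0.0108) was lost without SKBR3 control replicate 1 (adjusted p = 0.0761).

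**Figure D4:**
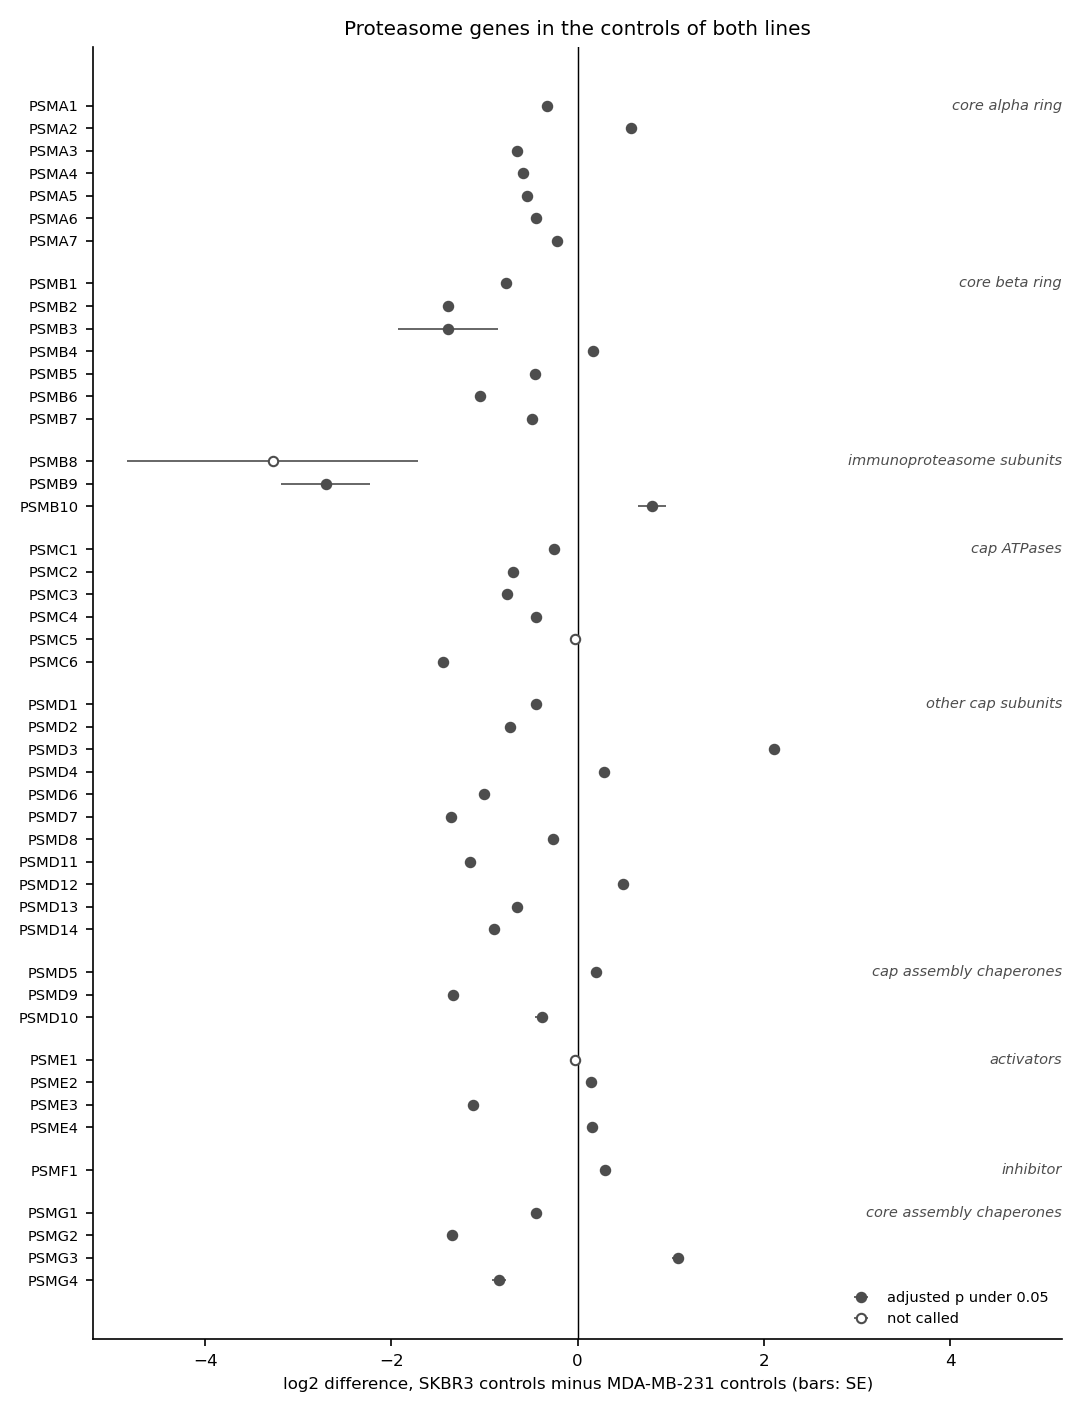
Log2 difference between SKBR3 and MDA-MB-231 controls for each tested member (horizontal axis, bars are SE), grouped by role on the vertical axis; filled points have an adjusted p under 0.05. Most members lie left of 0, and PSMD3 lies farthest to the right (2.10). PSMB9, with few counts in SKBR3, is the farthest to the left among those called (-2.71).

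Per kilobase of the longest coding transcript, levels of subunits that are present in equal number in the assembled particle were unequal. In MDA-MB-231 controls PSMA7 was the highest member, at 314 ± 16.1 CPM per kilobase (SD, n = 5), and PSMA4 the lowest alpha gene, at 40.7 ± 2.28. The next levels, 217 ± 9.31 for PSMB1, 211 ± 9.91 for PSMD2 and 207 ± 12.5 for PSMA6, differed by less than their spread between neighbours in that order. Of the ATPases the highest was PSMC3 at 143 ± 5.39 and the lowest PSMC1 at 68.8 ± 1.49. In SKBR3 controls PSMD3 was the highest member, at 326 ± 16.4 CPM per kilobase (SD, n = 3), followed by PSMA7 at 266 ± 16.5 and PSMB4 at 210.3 ± 12.8. PSMB10 was at 5.33 ± 0.617 in MDA-MB-231 and 8.99 ± 2.59 in SKBR3 controls, where its counterpart PSMB7 was at 183 ± 5.96 and 128 ± 2.12. With MitoQ, PSMB10 reached 16.3 ± 1.18 in SKBR3. These levels depend on the transcript length taken for each gene, which was 4448 bases for PSMC1 and 4411 bases for PSMA4. In CPM, without this division, PSMC1 lay above PSMC3 and PSMA4 above PSMA2 in MDA-MB-231 controls.

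Proteasome genes outside the PSM symbols were mostly lower as well. Of 11, 6 were lower and 1 higher in MDA-MB-231, and 7 were lower in SKBR3, with medians of -0.18 and -0.13. The shares of all genes to set beside these lists are 27.6% lower and 29.9% higher in MDA-MB-231 and 14.1% and 13.8% in SKBR3. POMP, the chaperone that completes the core, was lower in both lines (-0.37 ± 0.05 SE, adjusted p = 7.57e-06 and -0.37 ± 0.04 SE, adjusted p = 3.63e-05), as was SEM1, a small cap subunit (-0.38 ± 0.05 SE, adjusted p = 5.33e-06 and -0.40 ± 0.11 SE, adjusted p = 0.0405). PAAF1, a cap assembly factor, was higher in MDA-MB-231 (0.42 ± 0.08 SE, adjusted p = 0.000175). In SKBR3 UCHL5, a cap deubiquitinase, and TXNL1, a cap-associated thioredoxin, were lower (-0.25 ± 0.05 SE, adjusted p = 0.0014 and -0.26 ± 0.05 SE, adjusted p = 0.00171). Of the 10 genes of the NRF1 axis, 8 were higher in MDA-MB-231, led by NFE2L1 itself (1.01 ± 0.05 SE, adjusted p = 9.17e-13), its partner MAFF (0.89 ± 0.05 SE, adjusted p = 3.44e-11) and the repressor BACH1 (0.32 ± 0.04 SE, adjusted p = 5.35e-06). The median over the 10, a list that holds a repressor as well as NFE2L1, was 0.27 in MDA-MB-231 and -0.04 in SKBR3. The part of NRF1 in the changes of the proteasome genes was not tested. In SKBR3 MAFG and MAFK were higher (0.29 ± 0.05 SE, adjusted p = 0.000701 and 0.27 ± 0.05 SE, adjusted p = 0.00237), and DDI2, the protease that releases NRF1, NGLY1 and NFE2L2 were lower, DDI2 with -0.21 ± 0.04 (SE, adjusted p = 0.0014). NFE2L1 had 0.04 ± 0.05 (SE, adjusted p = 0.605) there, and its difference between lines was -0.93 ± 0.07 (SE, adjusted p = 5.28e-10).

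Of 17 genes that supply or deliver ubiquitin, 16 were tested in MDA-MB-231, with 5 higher and 9 lower, and 17 in SKBR3, with 4 higher and 7 lower. SQSTM1, the autophagy receptor for ubiquitinated cargo, was higher in both lines (1.09 ± 0.05 SE, adjusted p = 1.03e-12 and 0.25 ± 0.04 SE, adjusted p = 0.000989). VCP, the segregase that hands substrates to the proteasome, was lower in both (-0.66 ± 0.04 SE, adjusted p = 3.15e-10 and -0.16 ± 0.04 SE, adjusted p = 0.00449). NUB1 was higher in MDA-MB-231 and lower in SKBR3 (0.57 ± 0.04 SE, adjusted p = 1.23e-09 and -0.16 ± 0.05 SE, adjusted p = 0.0236), and its difference between lines was -0.69 ± 0.06 (SE, adjusted p = 1.44e-08). UBA6, an enzyme that activates ubiquitin, and RAD23B, a shuttle, were lower in both lines, with -0.27 ± 0.06 and -0.19 ± 0.04 in MDA-MB-231 and -0.21 ± 0.04 and -0.17 ± 0.04 in SKBR3 (SE, adjusted p = 0.000865 to 0.00375). Over the tested ubiquitin genes the median log2 fold change was -0.17 in MDA-MB-231 and -0.04 in SKBR3. Of 15 genes of antigen processing and interferon signalling, 14 were tested in MDA-MB-231, with 7 higher, and 13 in SKBR3, with 2 higher (medians 0.29 and 0.40). ERAP1, a trimming peptidase, and IRF1, an interferon-response factor, were higher in both lines: ERAP1 by 0.68 ± 0.05 and 0.55 ± 0.07, and IRF1 by 0.37 ± 0.05 and 0.70 ± 0.10. Their adjusted p were 7.81e-10 and 7.65e-05 for ERAP1 and 1.13e-05 and 0.000693 for IRF1. JAK1 was higher in MDA-MB-231 (0.57 ± 0.04 SE, adjusted p = 1.95e-09). The effect on JAK1 and IRF1 differed between lines (-0.49 ± 0.06 SE, adjusted p = 1.91e-06 and 0.37 ± 0.12 SE, adjusted p = 0.0148).

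Between the control lines, 11 of 11 proteasome genes outside the PSM symbols were called, 6 higher in SKBR3 and 5 lower, shares near those of all genes (42% and 44.4%), the smallest p belonging to USP14, AKIRIN2 and POMP (-1.04 ± 0.04, -1.42 ± 0.06 and -0.96 ± 0.05). Of the NRF1 axis, DDI2 and MAFK were higher in SKBR3 and MAFF lower (1.96 ± 0.05, 2.55 ± 0.07 and -1.67 ± 0.07). Of the ubiquitin genes, UBQLN4 was higher and UBB lower (1.03 ± 0.04 and -1.17 ± 0.05). Of the antigen processing genes, 10 of 14 were lower in SKBR3 (44.4% of all genes), among them NLRC5, JAK1 and ERAP2 (-4.45 ± 0.15, -0.53 ± 0.04 and -1.48 ± 0.17). The largest adjusted p of these 11 genes was 3.76e-08.

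Members with and without the promoter motifs shown above were compared as a description. The 13 tested members with an antioxidant core had a median log2 fold change of -0.23 in MDA-MB-231, with 10 lower, and the 27 without it -0.38, with 21 lower. Of all genes, 27.6% were called lower there. In SKBR3 the medians were -0.13 over 12 and -0.21 over 26. The 5 with an interferon-stimulated core included PSMB10 and PSMG4, both higher in MDA-MB-231, and PSMA4, PSMB4 and PSME2, all lower there; their median was -0.12, against -0.38 over the 35 without it. In SKBR3 those medians were -0.04 and -0.21. Medians with and without the other motifs lay the other way in MDA-MB-231: -0.42 over 6 members with a gamma-activated site and -0.30 over 34 without, and -0.34 over 18 with a CCAAT box and -0.30 over 22 without. In SKBR3 they were -0.14 over 5 and -0.21 over 33 for the gamma-activated site, and -0.21 over 17 and -0.18 over 21 for the CCAAT box. PSMC2, with the largest called fall, has a CCAAT box 31 bases before its start and none of the other motifs in the window shown. By position, 8 members lie on chromosome 14 and 7 on chromosome 17, and the ring partners PSME1 and PSME2 are neighbours on chromosome 14.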

How the data were processed

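Total RNA was extracted with a column kit and DNase treatment, per the labels' protocols. The authors deposited estimated counts per gene for the 16 libraries, made with Salmon on GRCh38 per the submitters' processing notes, which also name edgeR. Their versions were not among the sources. The deposited estimated counts are whole numbers. edgeR 4.0.16 (R 4.3.3) was run with filterByExpr, TMM factors and robust quasi-likelihood tests, once for each line, once for the controls of both lines and once with a line-by-treatment term over the 16 libraries, with no replicate block. Benjamini-Hochberg adjustment ran over all genes tested, at a threshold of 0.05; SE is |log2 fold change| divided by the root of F. CPM values use one TMM scale over the 16 libraries. Ratios of immunoproteasome to constitutive counts, with 0.5 added, were tested by exact permutation.

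Values in every library are given for the catalytic and immunoproteasome subunits, the activators and, for each treatment comparison, the 5 largest called rises and falls at a mean of at least 5 CPM. The 5 largest line differences each way, the 4 largest differences of effect, and the 3 genes with the smallest p in each companion list are named, apart from a result that is not reported here. PSMD2, PSMG3, CD74 and PSMB3 were given values after their results were seen. The members and lists were chosen with earlier results of these data known. Coordinates and transcript sequences come from GENCODE 29, promoters from RefSeq (GRCh38.p14). Scripts were tested on simulated data. Alternatives were other scaling, DESeq2 1.42.0, limma 3.58.1 voom, other filters, a replicate block, a single fit, a threshold of 0.01 and leaving out each library.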

Additional observations from a re-analysis of the deposited data

Results flagged for a closer look

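Single libraries lay apart from the rest of their group for 3 members. PSMD10, a cap assembly chaperone, was at 35.8 CPM in MDA-MB-231 control replicate 5, and the nearest other control was at 32.1 CPM. PSMG1, a core assembly chaperone, was at 58.1 CPM in the same library, and the nearest other control was at 53.8 CPM. PSMD9 was at 61.4 CPM in MDA-MB-231 MitoQ replicate 2, the library apart on the second principal component, and the nearest other MitoQ library was at 67.2 CPM. Each gap was more than 0.71 of the range of its group. These are 3 of 98 groups of 5 libraries examined, and chance alone marks about 1 in 20 such groups.

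The effect of MitoQ differed between the lines for 18 members, by edgeR's interaction test. The log2 difference, SKBR3 minus MDA-MB-231, was 0.36 for PSMA2, 0.51 for PSMA3 and 0.31 for PSMA6 in the alpha ring. In the beta ring it was 0.37 for PSMB2 and 0.27 for PSMB4. Among the ATPases it was 0.35 for PSMC1, 0.39 for PSMC2 and 0.24 for PSMC4. Other cap subunits had 0.18 for PSMD1, 0.37 for PSMD3, 0.23 for PSMD11, 0.34 for PSMD13 and 0.20 for PSMD14. The chaperones PSMD5 and PSMG2 had 0.22 and 0.28, and the activators PSME1, PSME2 and PSME4 had 0.34, 0.24 and 0.33.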

How the results depend on the processing

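Directions and calls were compared under each alternative named above. Of the members called, 31 of 35 lower and 2 of 3 higher in MDA-MB-231 kept their call under every alternative run, 19 of 26 and 1 of 2 in SKBR3, 31 of 32 lower and 10 of 11 higher between control lines, and 11 of 18 for the difference of effects. The number higher in SKBR3 went from 2 to 1 with a threshold of 0.01, with DESeq2 and with a single fit, and was 1 to 2 when single libraries were left out. For the difference of effects, the number lower went from 0 to 1 with DESeq2's size factors, to 3 with plain library totals (where 11 were higher, against 18) and to 2 with DESeq2, voom and a filter at 1 CPM, and was 0 to 1 without single libraries. The cause was not tested.

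Left out in turn, single libraries gave 2 to 4 higher and 32 to 35 lower members in MDA-MB-231, 21 to 28 lower in SKBR3, 10 to 11 higher and 31 to 32 lower between control lines, and 13 to 21 higher for the difference of effects. With plain totals PSMD2 and PSMD4 in MDA-MB-231 turned to 0.045 and 0.0046, with voom PSMB8 there turned to 0.039, and with a filter at 1 CPM PSME1 and PSMC5 between control lines turned to 0.054 and 0.048. None of these 5 was called. Leaving out single libraries turned the sign of PSMD2 in MDA-MB-231 (-0.040 to 0.011), PSMG2 and PSMG4 in SKBR3 (-0.087 to 0.015 and -0.060 to 0.012), and PSME1 and PSMC5 between control lines (-0.071 to 0.029 and -0.071 to 0.0099). The PSMB8 to PSMB5 ratio ran from -0.59 to 0.47 in MDA-MB-231 and from -0.53 to 1.64 in SKBR3 (log2 differences).

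Same-numbered control and MitoQ libraries deviated together with correlations of -0.089 to 0.0764. Of these numbers, 2 of 3 in SKBR3 and 0 of 5 in MDA-MB-231 correlated best with their own. Such values do not settle whether the numbers pair the samples. With a replicate block, 34 members were lower and 2 higher in MDA-MB-231, 28 and 2 in SKBR3, 31 lower and 11 higher between control lines, and 16 higher for the difference of effects. In SKBR3 the block added PSMB5 (-0.14, adjusted p = 0.0198) and PSMD10 (-0.21, adjusted p = 0.0451) to the lower members. Depth limits PSMA8 and PSMB11, with 1 and 3 counts in all, and PSMB9 in SKBR3, with 0 to 9 counts a library.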

Other observations

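Replicate scatter was uneven among the proteasome genes. The coefficient of variation within a group, as the median over the 4 groups, was 91.6% for PSMB8, 39.6% for PSMB3, 35.8% for PSMB9 and 12.7% for PSMB10. The other 42 members with at least 100 counts had 1.97 to 8.23%. Among the companion genes, scatter was also wide for BAG6 (103%), HLA-C (84.2%), TAP1 (54.9%), TAPBP (37.5%) and HLA-B (37.3%). The cause of this scatter was not tested.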
